A study of Mus musculus with 19 samples.

Results

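RNA was measured by bulk sequencing in mouse organoids, cell cultures grown in 3 dimensions, of non-small cell lung cancer (NSCLC, 4 libraries) and of normal lung (Normal, 3 libraries). These 7 of the 19 samples of the series share one deposited table of read counts, and the comparison described here is NSCLC over Normal. Of 51912 rows in that table, 32552 held at least 1 count in these libraries and 19932 passed the filter on low counts. Beside shared notes on how libraries were made, the labels tell the libraries apart by tissue and group. The driver mutation, strain, sex, age and culture conditions of either group are not given in the labels used here, nor whether the libraries of a group came from separate animals. Total counts ran from 122967042 to 154479953 in NSCLC libraries and from 20138197 to 21060762 in Normal libraries, a 6.85-fold difference between the group means, so depth goes with the group. Levels are given in CPM (a gene's share of its library's counts, with library sizes scaled by TMM), in the order of libraries 1 to 4 for NSCLC and 1 to 3 for Normal. A gene is called higher or lower where the adjusted p of edgeR's quasi-likelihood test is under 0.05.

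Lung epithelium is kept by alveolar and airway stem cells, whose state is held by lineage transcription factors and by growth factor, WNT, FGF and hedgehog signals exchanged with the stroma. Carcinomas of the lung often carry changes in the RAS pathway and its growth factor receptors, and dividing tumour cells draw on glycolysis, nucleotide synthesis and ribosome production. In bulk RNA, fewer cells of a type and less RNA per cell cannot be told apart. Epcam, the epithelial adhesion molecule, was present at 413 to 581 CPM in NSCLC and 109 to 115 CPM in Normal libraries. Nkx2-1, the lung lineage factor, was at 124 to 215 CPM in NSCLC and 729 to 932 CPM in Normal, so both epithelial and lung markers were detected in every library. Library profiles correlated at 0.962 to 0.983 within NSCLC, 0.960 to 0.972 within Normal and 0.814 to 0.842 between the groups (Pearson's r of log2 CPM across genes, which are not independent replicates).

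Processed pseudogenes, copies of messenger RNAs that were inserted back into the genome, were the class of row most often called, mostly as lower in NSCLC. Gapdh, the glyceraldehyde phosphate dehydrogenase of glycolysis, and Rpl23a, a protein of the large ribosomal subunit, show how alike parent and copy are. Each line below gives 120 bases of the coding strand, 5′ to 3′, from the GENCODE transcripts of the mouse build, with capitals at the positions where a shown copy differs from its parent.
Gapdh: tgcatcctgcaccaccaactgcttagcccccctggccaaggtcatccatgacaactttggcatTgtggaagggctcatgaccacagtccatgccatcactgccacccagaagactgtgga
Gm12033: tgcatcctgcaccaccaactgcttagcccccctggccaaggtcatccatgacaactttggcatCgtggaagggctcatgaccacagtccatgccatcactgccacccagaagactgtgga
Gm12671: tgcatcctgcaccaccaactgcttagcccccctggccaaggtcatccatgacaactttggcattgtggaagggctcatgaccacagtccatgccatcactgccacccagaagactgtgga
Rpl23a: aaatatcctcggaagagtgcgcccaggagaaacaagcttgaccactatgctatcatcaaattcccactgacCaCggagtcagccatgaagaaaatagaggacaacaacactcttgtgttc
Gm10132: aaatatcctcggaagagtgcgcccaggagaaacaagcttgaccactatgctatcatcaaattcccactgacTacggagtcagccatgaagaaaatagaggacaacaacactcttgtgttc
Gm10335: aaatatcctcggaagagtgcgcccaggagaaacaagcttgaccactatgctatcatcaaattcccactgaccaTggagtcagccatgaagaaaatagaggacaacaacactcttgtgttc
The stretches span coding bases 441 to 560 of Gapdh and 175 to 294 of Rpl23a. With positions counted from 1 at the first base shown, Gm12033 carries T64C, Gm10132 carries C72T and Gm10335 carries C74T, while Gm12671 holds 0 differences from Gapdh over this stretch. Gapdh lies on chromosome 6 from 125161715 to 125166467 and Rpl23a on chromosome 11 from 78180932 to 78183584, both on the minus strand (mm10). Gm12671 lies on chromosome 4 from 91851668 to 91852669 and Gm12033 on chromosome 11 from 20335012 to 20336013, both on the minus strand. Gm10132 lies on chromosome 14 from 77251847 to 77252314 on the minus strand and Gm10335 on chromosome 10 from 14523078 to 14523545 on the plus strand.

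For Gapdh, Rpl23a and the copies shown, parent and copy moved in opposite directions in the counts. Gapdh was at 5433, 6997, 8120 and 5093 CPM in NSCLC libraries, against 427, 416 and 348 CPM in Normal libraries. Gm12671, its copy without a difference in the stretch shown, was at 401, 500.0, 576 and 344 CPM in NSCLC and 1028, 1005 and 826 CPM in Normal. All NSCLC libraries thus lay above all Normal libraries for the gene and below them for the copy (log2 fold change 4.01 ± 0.27 SE, adjusted p = 1.58e-05, for Gapdh, and -1.07 ± 0.21, adjusted p = 0.00303, for Gm12671). Its other copies did not move as one: of 64 Gapdh pseudogene rows tested, 12 were higher and 13 lower, with a median log2 fold change of 0.58. Rpl23a was at 59.4, 47.3, 46.0 and 48.0 CPM in NSCLC and 3.13, 3.43 and 3.56 CPM in Normal. Its copy Gm10132 was at 117, 100.5, 94.9 and 82.3 CPM in NSCLC and 243, 267 and 268 CPM in Normal, and Gm10335 had nearly the same values as Gm10132 in every library. The 2 copies fell while the parent rose (log2 fold changes -1.39 ± 0.14 and -1.37 ± 0.14 for the copies and 3.89 ± 0.16 for Rpl23a, with adjusted p = 1.19e-04, 1.33e-04 and 3.19e-06). Rpl23a and its copies were chosen after their values were seen.

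The pattern held across the class. Of 1812 processed pseudogene rows tested, 88 were higher and 1126 lower in NSCLC, or 4.86% and 62.1%, while 28.5% of all tested rows were higher and 25.0% lower. Their median log2 fold change was -1.98, against 0.23 for the 14906 protein-coding genes. Of the 1640 rows that could be matched to 792 protein-coding parents, 760 were lower while the parent was higher and 60 were lower together with the parent. Processed pseudogene rows took 1.27 to 1.60% of all counts in NSCLC libraries and 6.42 to 7.52% in Normal libraries, so the ranges of the groups did not overlap. Within families the gap was wider. For 82 ribosomal protein genes, the pseudogene rows held 5.76 to 6.48% of the family's CPM in NSCLC and 61.2 to 61.9% in Normal. For Gapdh with its 118 matched rows they held 38.2 to 40.3% in NSCLC and 95.4 to 95.5% in Normal, and for 1289 other parents 2.77 to 3.20% and 15.6 to 17.8%. The median log2 fold change of the pseudogene rows went with their likeness to the parent. It was -0.73 for the 212 rows of up to 94% identity, -2.67 for the 438 rows above 96 and up to 98%, and -2.93 for the 354 rows above 99% that were not identical, but -1.62 for the 103 rows identical over the matched length.

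How reads that align to several places were counted is not given in the sources used here. Gm12671 and Gm7336, a pair of near-identical Gapdh copies, differed by 921, 330, 191 and 28 counts in NSCLC libraries. The counting error of the difference would be 317, 386, 373 and 314 counts there. In Normal libraries they differed by 5, 0 and 25 counts, where that error would be 210, 214 and 189 counts. Only in NSCLC1 was the difference larger than the error, and in NSCLC4 and every Normal library it was far smaller. That error assumes that each row holds its own reads. Whether the 2 rows hold the same reads was not tested. If rows share reads, the family shares above count such reads more than once. Parents were therefore tested again in 2 ways chosen after the data were seen: with the counts of all matched pseudogene rows added, and with only the largest such row of each library added. The first counts a read more than once if it stands in several rows, and the second leaves reads out if it does not. Among 736 parents called higher as counted, 555 stayed higher, 169 were not called and 12 were lower with all rows added. In the same fit 552 of 4386 higher genes without a matched row also lost their call, and the median log2 fold change of all genes shifted by -0.11, as it did with the largest row added. With the largest row added, 577 stayed higher, 152 were not called and 7 were lower. Over the protein-coding genes these fits called 29.4% higher and 23.9% lower with all rows added, and 29.5% and 24.0% with the largest row added.

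Gapdh ended at a log2 fold change of 2.16 with its largest row added (adjusted p = 3.59e-04) and 0.15 with all rows added (adjusted p = 0.646), so its rise depends on this choice. Rpl23a turned to -0.93 and -1.47, lower in NSCLC in both cases. Oaz1, the antizyme that restrains polyamine synthesis, went to -0.18 and -0.17 in place of 1.18, and Hadhb, a subunit of the mitochondrial trifunctional protein of fatty acid oxidation, to 0.02 in both in place of 1.58, and neither was called. Pgk1, phosphoglycerate kinase, kept its rise at 2.55 and 1.94 in place of 3.97. Pkm, pyruvate kinase, kept 1.73 in both in place of 2.04, and Ldha, lactate dehydrogenase A, 2.43 and 2.44 in place of 2.55. What sets the share of reads in pseudogene rows in each group was not tested. Where a gene below has matched pseudogene rows and its value moves with them, both values are given.

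**Figure D1:**
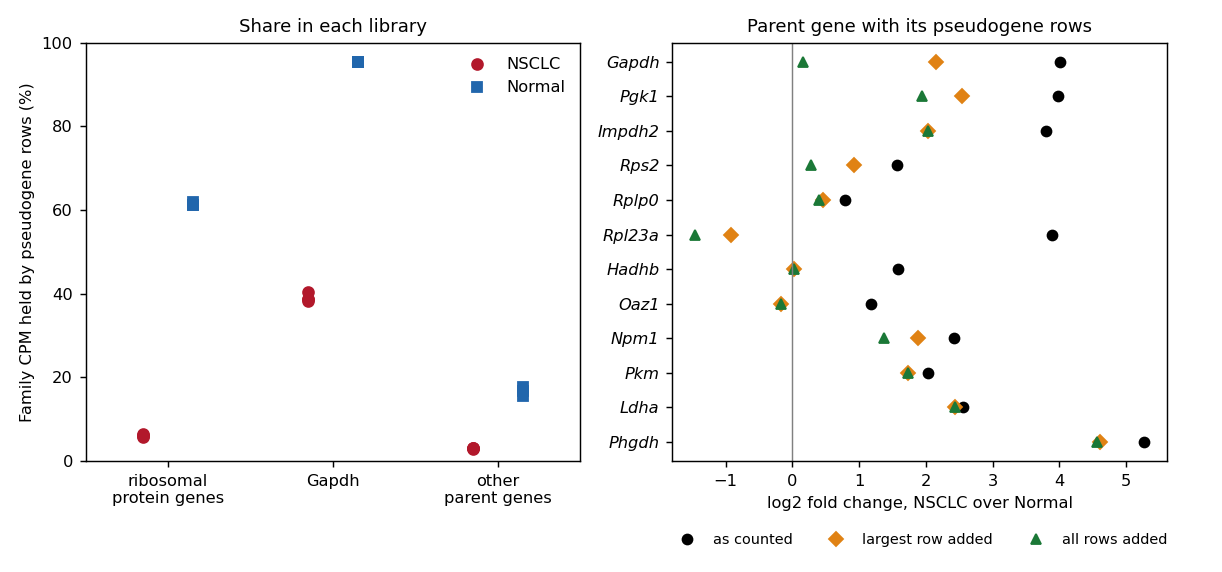
Left, the percent of each family's CPM held by processed pseudogene rows, for NSCLC (circles, 4 libraries) and Normal (squares, 3 libraries). Right, the log2 fold change (NSCLC over Normal) of 12 parent genes as counted, with the largest pseudogene row added and with all rows added. Ribosomal protein families lie near 6% in NSCLC and above 61% in Normal, and Gapdh and Rpl23a move most to the left.

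Detection of genes followed depth. At full depth 13976 to 14468 protein-coding genes had 10 or more counts in NSCLC libraries and 12822 to 13134 in Normal libraries. With every library thinned at random to about 20138197 counts, the order turned round, with 12144 to 12594 genes in NSCLC and 12797 to 13090 in Normal. Processed pseudogene rows with 10 or more counts numbered 1494 to 1760 in NSCLC and 1215 to 1266 in Normal at full depth, and 767 to 835 and 1215 to 1262 after thinning. The 10 rows with the most counts took 5.57 to 8.38% of the counts in NSCLC and 10.97 to 11.57% in Normal. Mitochondrial rows took 2.48 to 3.23% in NSCLC and 1.95 to 2.57% in Normal.

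**Figure D2:**
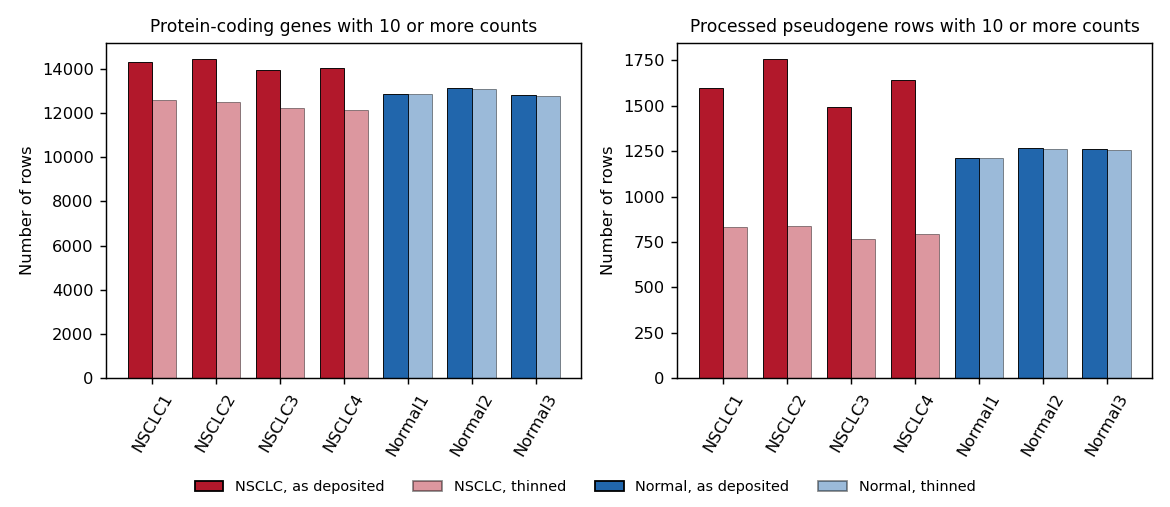
Number of protein-coding genes (left) and processed pseudogene rows (right) with 10 or more counts in each of the 4 NSCLC and 3 Normal libraries, as deposited (dark) and after thinning to equal depth (light). NSCLC bars stand above Normal bars as deposited and below them after thinning, in both panels.

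Among the 14906 protein-coding genes tested, 5122 were higher and 3214 lower in NSCLC (34.4% and 21.6%). These shares are the background for the counts of each gene list below, and a list near them does not stand apart. A change of at least 4-fold was seen in 1535 of the higher genes (30.0% of them) and 1482 of the lower genes (46.1%). One of at least 64-fold was seen in 229 of the higher genes (4.47%) and 357 of the lower genes (11.1%). Of 1997 long non-coding RNAs, 313 were higher and 430 lower. The direction with more calls over all rows depended on the scaling, with 53.2% of calls higher under TMM and 44.8% under upper quartile scaling, which shifted the median of all genes by -0.18 on the log2 scale. Genes that were nearly absent from one group were counted by a simple rule. At least 10 CPM in each NSCLC library with at most 0.5 CPM in each Normal library was found for 12 genes, and the converse for 42 genes.

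Some of the largest rises were in genes of intestinal and liver epithelium. Cdhr2, a protocadherin of the brush border, was at 18.02, 124, 539 and 466 CPM in NSCLC, while the Normal libraries held 4 counts of it in all. Alb, serum albumin, was at 5.44, 278, 45.4 and 132 CPM in NSCLC and 0.0879 to 0.187 CPM in Normal, and Apob, the structural apolipoprotein of chylomicrons and VLDL, at 7.69 to 238 CPM in NSCLC and 0 to 0.420 CPM in Normal. Both were called (adjusted p = 0.0018 and 0.00219), with NSCLC1 the lowest of the NSCLC libraries for each.

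The largest falls took in ion channels, secreted proteins and a chemokine. Kcnj15, an inward rectifier potassium channel, was at 0.0723, 0.181, 0.314 and 0.460 CPM in NSCLC and 493, 428 and 531 CPM in Normal (log2 fold change -10.87 ± 0.58 SE, adjusted p = 5.61e-06). Slco3a1, an organic anion transporter, was at 0.0558 to 0.477 CPM in NSCLC and 116 to 223 CPM in Normal, and Bpifa1, a secreted defence protein of the airway lining, at 0.0134 to 1.30 CPM in NSCLC and 154 to 849.7 CPM in Normal. Neither gene's groups overlapped. Serping1, the C1 inhibitor of the complement and contact systems, was at 0 to 0.0496 CPM in NSCLC and 51.8, 149 and 40.6 CPM in Normal. Ccl2, a chemokine that draws monocytes, was at 0.0139 to 0.0803 CPM in NSCLC and 42.2, 153 and 42.5 CPM in Normal, and Sparcl1, a matricellular protein, at 0 to 0.167 CPM in NSCLC and 75.3, 111 and 45.6 CPM in Normal. For these 3 genes Normal2 was the highest library, and that library also had the highest sums of macrophage and fibroblast markers given below.

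Genes of growth were higher in NSCLC in lists that run from DNA synthesis to protein folding. All 29 mitosis and spindle genes tested rose, with a median log2 fold change of 2.31, as did 28 of 31 DNA replication genes (median 1.52, none lower) and 21 of 26 DNA repair genes (median 1.28, 1 lower). Top2a, the topoisomerase that untangles replicated chromosomes, was at 345, 265, 164 and 248 CPM in NSCLC and 29.2, 66.3 and 42.3 CPM in Normal (log2 fold change 2.48 ± 0.35 SE, adjusted p = 6.13e-04). Mcm3 and Mcm7, subunits of the replicative helicase, rose by 1.84 ± 0.29 and 1.66 ± 0.23. Kif23, a kinesin of cytokinesis, was at 119, 116, 79.2 and 123.2 CPM in NSCLC and 11.4, 27.9 and 18.9 CPM in Normal. In both sets of libraries the same one stood out for Top2a and Kif23: NSCLC3 was the lowest of its group and Normal2 the highest of its own. Uhrf1, which brings the maintenance DNA methyltransferase to replicated DNA, rose by 2.0 ± 0.34 (adjusted p = 0.00168). Without NSCLC3 the lower DNA repair genes numbered 2.

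Ribosome production and translation showed the same direction. Of 29 ribosome biogenesis genes 27 rose and 1 fell (median 1.53), of 20 tRNA synthetases all 20 rose (median 1.31) and of 16 translation factors 12 rose and 0 fell (median 1.11). With all pseudogene rows added 11 translation factors rose and the median was 0.62. Ncl, nucleolin, was at 760.4, 726, 507 and 849 CPM in NSCLC and 238, 306 and 264 CPM in Normal (log2 fold change 1.40 ± 0.21, adjusted p = 8.45e-04). Npm1, nucleophosmin, was at 529 to 938 CPM in NSCLC and 122.9 to 144.9 CPM in Normal. Its log2 fold change of 2.42 ± 0.22 became 1.88 with its largest pseudogene row and 1.37 with all rows added. Nars and Vars, the asparagine and valine tRNA synthetases, rose by 1.84 ± 0.15 and 1.82 ± 0.22, and Mybbp1a, a nucleolar MYB-binding protein, by 1.80 ± 0.24.

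Cytosolic ribosomal proteins were the list most exposed to pseudogenes, with matched rows for 78 of its 80 tested members. As counted, 74 rose and 0 fell, with a median log2 fold change of 2.06. With the largest row added 51 rose and 3 fell (median 0.62), and with all rows added 40 rose and 6 fell (median 0.45). Rplp0, a stalk protein of the large subunit, was at 2358 to 3578 CPM in NSCLC and 1574 to 1789 CPM in Normal, and its log2 fold change of 0.78 ± 0.21 became 0.46 (adjusted p = 0.098) and 0.39 (adjusted p = 0.15). Rps2 of the small subunit was at 1772 to 3028 CPM in NSCLC and 607 to 990.0 CPM in Normal, with 1.57 ± 0.27 as counted, 0.93 with the largest row and 0.28 with all rows added. Eif4a1, the RNA helicase of translation initiation, kept its call with 0.93 in both cases, in place of 2.64 ± 0.23.

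Protein quality control and respiration rose by smaller amounts. Of 33 proteasome genes 26 rose and 0 fell (median 0.60), or 20 and 0 with pseudogene rows added in either way (median 0.44). Of 25 chaperonin and heat shock genes 20 rose and 1 fell (median 1.0), or 19 and 1 with such rows added (median 0.87). Of 80 nuclear genes of oxidative phosphorylation 49 rose and 3 fell (median 0.53), or 37 and 6 with pseudogene rows added in either way. Hspa1b, an inducible HSP70, was at 508, 681, 1031 and 666 CPM in NSCLC and 65.7, 61.6 and 68.6 CPM in Normal (log2 fold change 3.47 ± 0.27 SE, adjusted p = 2.86e-05). Hspa5, the chaperone BiP of the endoplasmic reticulum, rose by 1.56 ± 0.21, within an unfolded protein response list of 15 genes with 10 higher and 1 lower. Psmd2, a base subunit of the proteasome, rose by 0.67 ± 0.14 and Cox6a1, a subunit of cytochrome c oxidase, by 1.36 ± 0.15. Of 49 genes listed as replication-dependent histones 24 rose and 1 fell. Most messages of this class lack a poly(A) tail, and the labels describe a kit for messenger RNA. Leaving out 1 library moved only the small counts of lower genes in these lists, to 6 for oxidative phosphorylation without NSCLC1 and to 0 for the unfolded protein response without Normal3.

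**Figure D3:**
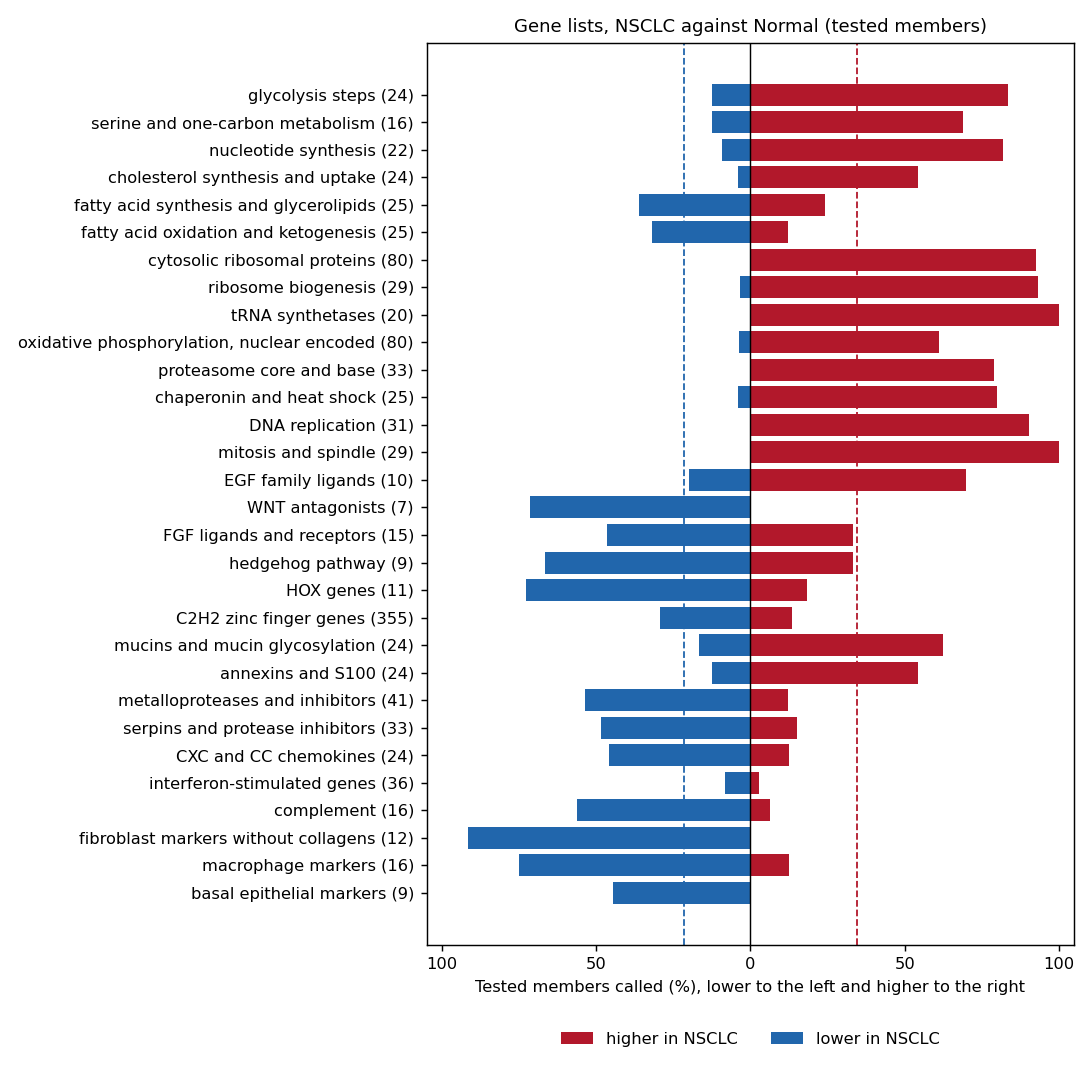
Percent of tested members called higher (right, red) or lower (left, blue) in NSCLC for 30 gene lists, with the number tested in parentheses. Dashed lines mark the shares of all tested protein-coding genes, 34.4% higher and 21.6% lower. The glycolysis, serine and nucleotide lists at the top and the growth lists farther down extend to the right, while the fatty acid lists between them lean left. The fibroblast, macrophage, HOX and WNT antagonist lists extend to the left.

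Most genes of glycolysis and of serine synthesis were higher, while most of the pentose phosphate pathway was not called. Of 24 genes of glycolytic steps 20 rose and 3 fell (median 2.12), and 20 or 19 rose with the largest or all pseudogene rows added. Slc2a1, the glucose transporter GLUT1, was at 499, 533, 484 and 334 CPM in NSCLC and 71.3, 94.5 and 73.2 CPM in Normal (log2 fold change 2.54 ± 0.21, adjusted p = 4.52e-05). Slc16a3, the lactate exporter MCT4, was at 426, 775, 476 and 323 CPM in NSCLC and 13.7, 16.96 and 11.6 CPM in Normal, 35.4-fold higher by group means (5.15 ± 0.37, adjusted p = 2e-05). Hk2, a hexokinase, rose by 1.95 ± 0.23. Of 9 pentose phosphate genes 2 rose and 1 fell, and their summed level overlapped, at 1024 to 1553 CPM in NSCLC and 927 to 1598 CPM in Normal. In serine and one-carbon metabolism 11 of 16 genes rose and 2 fell (median 2.04). Phgdh, which takes a glycolytic intermediate into serine synthesis, was at 358, 548, 1216 and 1112 CPM in NSCLC and 17.5, 29.1 and 16.1 CPM in Normal. NSCLC3 and NSCLC4 had more than NSCLC1 and NSCLC2, and all were above Normal (5.27 ± 0.55, adjusted p = 1.35e-04, and 4.56 with all pseudogene rows added). Psat1, the next enzyme of that path, rose by 2.49 ± 0.17 and Shmt2, the mitochondrial serine hydroxymethyltransferase, by 2.05 ± 0.21. Without Normal3, 1 gene of this list was lower in place of 2.

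Of 22 nucleotide synthesis genes 18 rose and 2 fell (median 1.22). Impdh2, of the limiting step to guanine nucleotides, was at 173, 156, 106 and 178 CPM in NSCLC and 7.57, 14.7 and 10.7 CPM in Normal. Its log2 fold change was 3.80 ± 0.30 (adjusted p = 3.02e-05) and 2.03 with its single matched pseudogene row added. Cad, the enzyme of the first steps of pyrimidine synthesis, rose by 2.68 ± 0.32. Ctps, CTP synthase, went the other way, with 62.8 to 107 CPM in NSCLC and 163 to 227 CPM in Normal (-1.35 ± 0.21, adjusted p = 0.00105). Of 27 genes of the tricarboxylic acid cycle 9 rose and 3 fell (median 0.23), so most were not called. The share that rose was near the 34.4% of all protein-coding genes. Pcx, pyruvate carboxylase, was among the lower ones at 93.1 to 102 CPM in NSCLC and 180.4 to 265 CPM in Normal (-1.13 ± 0.15). Of the nucleotide genes 1 was lower in place of 2 when any single library other than NSCLC1 was left out.

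Lipid genes were called in both directions. Of 24 genes of cholesterol synthesis and uptake 13 rose and 1 fell (median 0.63), or 9 and 2 with pseudogene rows added in either way. Only 4 members have such rows. Sqle, squalene epoxidase, was among the higher ones, up by 1.06 ± 0.15. Of 25 genes of fatty acid synthesis and glycerolipids 6 rose and 9 fell (median -0.18). Scd1, the desaturase that makes monounsaturated fatty acids, was at 1295, 1283, 488 and 548 CPM in NSCLC and 19133, 9723 and 12747 CPM in Normal, 15.3-fold lower by group means (-3.94 ± 0.47, adjusted p = 2.69e-04). Elovl1, an elongase of very long chain fatty acids, was at 84.8, 102, 150.0 and 177 CPM in NSCLC and 1378, 1433 and 1321 CPM in Normal (-3.42 ± 0.27, adjusted p = 3.33e-05). Fasn, fatty acid synthase, fell less, by 1.30 on the log2 scale (SE 0.33), with NSCLC2 at 2190 CPM near the 2805 CPM of Normal2 and the other NSCLC libraries at 857 to 1079 CPM. Fatty acid oxidation and ketogenesis had 3 higher and 8 lower of 25 as counted, and 1 and 9 in the fit with pseudogene rows added, although only 2 members have such rows and all genes shift by -0.11 in that fit. Without Normal1 or without Normal3, 4 of these were lower. The single lower cholesterol gene was lost without NSCLC1 or any one Normal library, and 2 were lower without NSCLC2.

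Genes of redox and foreign compound metabolism went both ways. Of 26 glutathione and thioredoxin genes 9 rose and 6 fell, and of 23 xenobiotic and retinol genes 7 rose and 12 fell. Among all protein-coding genes 34.4% were higher and 21.6% lower, so the glutathione and thioredoxin list was near those shares. Prdx6, a peroxiredoxin that also turns over surfactant lipid, was at 183, 167, 364 and 236 CPM in NSCLC and 2269, 1429 and 1875 CPM in Normal (log2 fold change -2.97 ± 0.31, adjusted p = 1.38e-04). Gstp1, a glutathione transferase, was at 362 to 1246 CPM in NSCLC and 117 to 161 CPM in Normal (2.46 ± 0.40). Nqo1, a quinone reductase and target of NRF2, was at 0.538, 1.38, 4.48 and 2.10 CPM in NSCLC and 12.7, 32.5 and 19.08 CPM in Normal (-3.33 ± 0.66, adjusted p = 0.00347). Of 7 polyamine genes 5 rose and 1 fell as counted, and 3 and 1 with pseudogene rows added. The higher glutathione and thioredoxin genes numbered 5 without Normal1 and 4 without Normal3.

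Among 27 lung cancer drivers and suppressors 5 rose and 4 fell (median 0.20), while 18 were not called. Several cell cycle regulators were higher in NSCLC. Cdkn2a, which encodes the inhibitors p16 and p19ARF, lies on chromosome 4 from 89274471 to 89294653 in mm10 and was at 717, 556, 649 and 575 CPM in NSCLC and 8.04, 7.03 and 6.93 CPM in Normal, 85.1-fold higher by group means (log2 fold change 6.41 ± 0.19 SE, adjusted p = 2.32e-06). Counts per gene do not separate the 2 products of this locus. Ccnd2, cyclin D2, was at 482, 676, 657 and 464 CPM in NSCLC and 64.4, 53.0 and 41.9 CPM in Normal (3.42 ± 0.24, adjusted p = 1.83e-05). Of 26 G1 cyclins, inhibitors and E2F factors 14 rose and 1 fell. Myc, a transcription factor of growth and ribosome genes, was at 638, 529, 338 and 378 CPM in NSCLC and 6.26, 14.1 and 7.21 CPM in Normal. Apc, the suppressor that marks beta-catenin for degradation, was at 98.2, 117, 129 and 119.7 CPM in NSCLC and 309, 228 and 279 CPM in Normal (-1.23 ± 0.15, adjusted p = 3.21e-04).

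**Figure D4:**
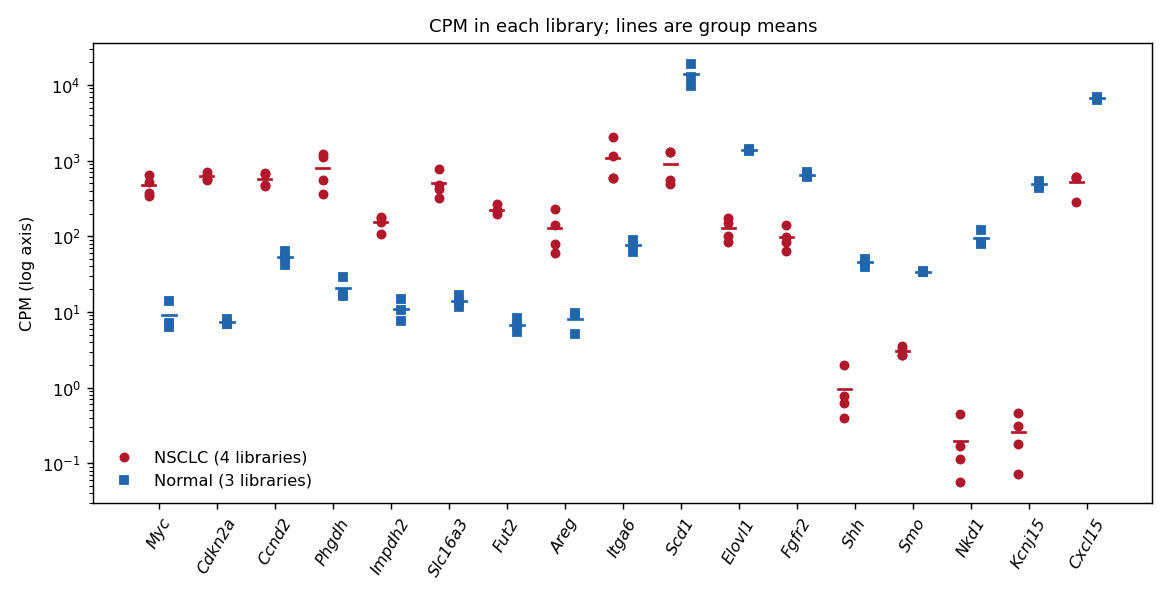
CPM on a log axis in each NSCLC library (red circles) and Normal library (blue squares) for 17 genes, with lines at the group means. The first 9 genes, Myc to Itga6, lie above Normal in every NSCLC library and the other 8, Scd1 to Cxcl15, below it.

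Growth factor ligands of the EGF family were mostly higher, with 7 of 10 tested rising and 2 falling (median 1.43). Areg, amphiregulin, was at 59.6, 80.1, 230.1 and 139.7 CPM in NSCLC and 9.16, 9.71 and 5.08 CPM in Normal (log2 fold change 4.0 ± 0.54 SE, adjusted p = 5.05e-04). Ereg, epiregulin, was at 166 to 405 CPM in NSCLC and 61.7 to 111 CPM in Normal (1.70 ± 0.39). Tgfa, transforming growth factor alpha, was at 107, 156, 104 and 102 CPM in NSCLC and 25.2 to 30.5 CPM in Normal (2.07 ± 0.19). The immediate early genes, which respond within minutes to growth factor signals and also to handling of cells, had 11 higher and 1 lower of 17. Egr1 was at 267, 308, 400.1 and 116 CPM in NSCLC and 13.8, 22.9 and 11.7 CPM in Normal (4.08 ± 0.47, adjusted p = 2.38e-04). The part of handling in these values was not tested. The lower members numbered 1 for EGF ligands without Normal1 and 2 for immediate early genes without NSCLC3.

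The FGF and hedgehog lists leaned the other way. Of 15 FGF ligands and receptors 5 rose and 7 fell (median -1.40). Fgfr2, the receptor through which stromal FGF signals reach lung epithelium, was at 63.9, 140.4, 83.6 and 98.6 CPM in NSCLC and 617, 629.7 and 711 CPM in Normal (log2 fold change -2.75 ± 0.26, adjusted p = 7.72e-05). Fgf1, a ligand, was at 17.8, 19.105, 11.5 and 18.8 CPM in NSCLC and 133 to 181 CPM in Normal (-3.15 ± 0.21). In the hedgehog pathway 6 of 9 genes fell and 3 rose. Shh, the ligand that lung epithelium sends to mesenchyme, was at 0.402, 0.765, 0.629 and 2.01 CPM in NSCLC and 45.7, 39.1 and 50.5 CPM in Normal (-5.56 ± 0.55, adjusted p = 9.84e-05). Smo, the signal transducer, was at 2.71 to 3.58 CPM in NSCLC and 33.4 to 35.0 CPM in Normal (-3.48 ± 0.16, adjusted p = 3.8e-06). Ptch1, the receptor that is also a target of the pathway, fell less, with 34.1 to 43.8 CPM in NSCLC and 54.4 to 67.9 CPM in Normal (-0.58 ± 0.14).

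WNT genes were called in both directions. Of 15 ligands 4 rose and 6 fell, and of 11 frizzled and LRP receptors 5 rose and 5 fell. Wnt7b, a ligand of lung and gut epithelium, was at 274, 264, 363 and 205 CPM in NSCLC and 77.3, 71.7 and 85.5 CPM in Normal (log2 fold change 1.82 ± 0.21, adjusted p = 2.02e-04). Wnt3a had 0 counts in all 4 NSCLC libraries and 13.8, 8.74 and 16.4 CPM in Normal libraries, at least 523-fold lower when set against 3 counts in the shallowest NSCLC library. Of 7 antagonists 5 fell and 0 rose (median -4.12). Dkk3 was at 0.148 to 0.466 CPM in NSCLC and 5.19, 17.7 and 2.82 CPM in Normal, and Sfrp1, secreted frizzled-related protein 1, at 0.125 to 0.490 CPM in NSCLC and 0.607, 16.0 and 2.40 CPM in Normal. Normal2 was the highest for both, and the summed antagonists were at 1.19 to 4.64 CPM in NSCLC and 12.3, 69.2 and 9.93 CPM in Normal. Without Normal3 the higher frizzled and LRP receptors numbered 3.

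Of 12 WNT targets and R-spondin receptors 6 rose and 2 fell, with both directions among feedback and stem cell genes. Nkd1, a feedback inhibitor of WNT signalling, was at 0.0562, 0.114, 0.455 and 0.167 CPM in NSCLC and 122, 79.1 and 84.3 CPM in Normal (log2 fold change -8.92 ± 0.64, adjusted p = 2.03e-05). Lgr5, a receptor and stem cell marker of the gut, was at 1.45, 58.7, 6.31 and 13.5 CPM in NSCLC and 0.0439 to 0.185 CPM in Normal, and Lgr4, its relative, rose by 2.30 ± 0.35. In the Notch list 7 of 16 rose and 3 fell. Rbpj, the DNA-binding factor of the pathway, was at 212 to 265 CPM in NSCLC and 38.8 to 43.5 CPM in Normal (2.58 ± 0.14, and 2.14 with pseudogene rows added), and Jag1, a ligand, rose by 1.47 ± 0.24. Grem1, an antagonist of BMP signalling, was at 0 to 0.0671 CPM in NSCLC and 64.6, 95.1 and 26.5 CPM in Normal, in a BMP list with 4 higher and 7 lower of 22. The higher BMP genes numbered 2 without Normal2 and 1 without Normal3, the lower Notch genes 1 without Normal3, and the lower WNT targets 1 without Normal2.

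Of 17 Eph receptors and ephrins 7 rose and 2 fell, with Epha2 at 648, 812, 968 and 1248 CPM in NSCLC and 205, 296 and 253 CPM in Normal (log2 fold change 1.87 ± 0.26). Of 30 semaphorins, plexins and neuropilins 11 rose and 7 fell, near the shares of all protein-coding genes (34.4% and 21.6%). Nrp1, neuropilin 1, a shared receptor of semaphorins and VEGF, was at 4.53, 6.71, 1.81 and 3.499 CPM in NSCLC and 129.9, 144 and 135 CPM in Normal (-5.04 ± 0.41, adjusted p = 3.64e-05). Among 18 circadian clock genes 4 rose and 5 fell, and Per3 was lower by 2.13 on the log2 scale (SE 0.27). The time of harvest is not given in the labels used here. The higher clock genes numbered 2 without NSCLC2, Normal2 or Normal3, and the lower Eph and ephrin genes 1 without NSCLC1, NSCLC4 or any one Normal library.

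Transcription factor families did not move as blocks. Of 11 HOX genes tested, out of 39 found in the table, 8 fell and 2 rose. Hoxa5, a regulator of lung patterning, had 0 counts in all NSCLC libraries and 2.24, 3.65 and 1.34 CPM in Normal libraries, at least 97.1-fold lower. Hoxb6 was at 0 to 0.0161 CPM in NSCLC and 0.739 to 3.08 CPM in Normal, while its neighbour Hoxb4 in the same cluster was at 30.5, 19.2, 19.5 and 9.74 CPM in NSCLC and 1.92, 2.86 and 1.62 CPM in Normal (log2 fold change 3.21 ± 0.43, adjusted p = 4.67e-04). The HOX levels in Normal were low, and after thinning to equal depth 2 lower calls were made in place of 8, and without Normal2 there were 5. Sox9, a factor of distal lung progenitors and of other epithelia, was at 22.7, 14.7, 42.3 and 13.3 CPM in NSCLC and 0.794, 0.483 and 0.554 CPM in Normal (5.25 ± 0.54), in a list of 12 SOX genes with 6 lower and 2 higher. The lower SOX genes numbered 2 without Normal1 and 3 without NSCLC2, NSCLC4 or Normal3.

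Of 19 KLF and GATA factors 8 rose and 2 fell, with Klf5, a factor of dividing epithelium, at 155.2 to 349 CPM in NSCLC and 48.8 to 64.7 CPM in Normal (log2 fold change 1.85 ± 0.31). The 28 forkhead factors had 7 in each direction, among them Foxp4 (1.39 ± 0.12) and Foxa1 (1.41 ± 0.35), a pioneer factor of endoderm. Genes with numbered Zfp symbols, listed here as C2H2 zinc finger genes, made up the largest list, with 48 of 355 higher and 104 lower (median -0.19). The list was drawn by symbol, so it holds some genes of other types, such as Zfp36, and leaves out C2H2 genes with other names. Under upper quartile scaling 30 were higher. In the fit with pseudogene rows added 32 were, although only 19 members have such rows. Zfp106 was one of the higher ones, with a difference of 0.77 ± 0.13. Among 7 oncofetal genes 4 rose and 0 fell. Hmga1, a chromatin protein of embryonic and tumour cells, was at 851, 781, 2062 and 1161 CPM in NSCLC and 96.2, 103 and 96.9 CPM in Normal (3.62 ± 0.38, adjusted p = 1.47e-04). Of 22 imprinted genes 4 rose and 7 fell, and Nnat, neuronatin, was at 3.16 to 6.09 CPM in NSCLC and 199.7, 165 and 205 CPM in Normal (-5.57 ± 0.28, adjusted p = 4.47e-06). Without Normal3, 30 zinc finger genes and 2 imprinted genes were higher, and without Normal1 also 2 imprinted genes. The lower KLF and GATA factors numbered 1 without NSCLC2, NSCLC4 or any one Normal library.

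Surface and adhesion families held members that moved in opposite directions. Among 15 claudins, the tight junction proteins, 5 rose and 2 fell, and the share that rose was near the 34.4% of all protein-coding genes. Cldn2, which forms cation pores in leaky epithelia, was at 94.7, 402, 147 and 316 CPM in NSCLC and 4.06, 0.791 and 1.43 CPM in Normal, while Cldn18, a claudin of lung and stomach, was at 3.06, 10.1, 44.5 and 104 CPM in NSCLC and 1179, 780.4 and 1042 CPM in Normal. Both were called, with log2 fold changes of 6.84 ± 0.82 (adjusted p = 2.76e-04) and -4.63 ± 1.05 (adjusted p = 0.00642). Of 25 integrins 11 rose and 8 fell. Itga6, the laminin-binding alpha 6 chain, was at 591, 587, 2036 and 1148 CPM in NSCLC and 90.5, 61.8 and 76.3 CPM in Normal (3.84 ± 0.52). Itga2, the collagen-binding alpha 2 chain, was at 222, 604, 515 and 573 CPM in NSCLC and 2.71, 2.11 and 1.20 CPM in Normal (7.90 ± 0.53, adjusted p = 1.39e-05). The higher integrins numbered 7 without Normal2 and under upper quartile scaling. The lower claudins numbered 4 without NSCLC1 and 1 without any other single library except NSCLC4.

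Of 24 mucins and enzymes of their glycosylation 15 rose and 4 fell (median 2.16). Fut2, the fucosyltransferase that makes secretor antigens, was at 224, 269, 197 and 215 CPM in NSCLC and 8.22, 6.68 and 5.5 CPM in Normal, 33.3-fold higher by group means (log2 fold change 5.06 ± 0.21, adjusted p = 3.39e-06). Muc5b, a gel-forming airway mucin, was at 341, 365, 94.9 and 93.1 CPM in NSCLC and 29.6, 6.68 and 14.1 CPM in Normal (3.73 ± 0.75), and Muc1, a transmembrane mucin, fell by 1.21 on the log2 scale (SE 0.25). Of 24 annexins and S100 proteins 13 rose and 3 fell. Anxa2 was at 2120 to 4787 CPM in NSCLC and 287 to 384 CPM in Normal (3.27 ± 0.33). S100a6 was at 995, 1583, 6795 and 4786 CPM in NSCLC and 161, 121 and 177 CPM in Normal, with NSCLC3 and NSCLC4 well above the other 2 tumour libraries. The lower annexin and S100 genes numbered 1 without Normal2 or Normal3.

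Among genes of proteases and their inhibitors, more were lower than higher in 2 of 3 lists. Of 41 metalloproteases and inhibitors 22 fell and 5 rose (median -2.33), and of 33 serpins and other protease inhibitors 16 fell and 5 rose (median -0.92). The summed level of the serpins and inhibitors was nonetheless higher, at 3559.9 to 5064 CPM in NSCLC and 2803 to 2960 CPM in Normal. Timp3, an inhibitor bound to the matrix, was at 109, 111, 523 and 165 CPM in NSCLC and 2561, 849.7 and 1458 CPM in Normal (log2 fold change -2.84 ± 0.64), and Mmp14, a membrane-bound collagenase, at 8.57 to 31.8 CPM in NSCLC and 61.8 to 125 CPM in Normal (-2.44 ± 0.49). The plasminogen system had 6 of 16 higher and 4 lower, near the shares of all protein-coding genes (34.4% and 21.6%). Plat, tissue plasminogen activator, was at 127 to 358 CPM in NSCLC and 2.77 to 11.5 CPM in Normal (5.32 ± 0.68). Prss8, an epithelial membrane protease, was lower by 2.04 (SE 0.23). Of 30 lysosomal hydrolases and partners 8 rose and 9 fell, and Npc2, the lysosomal cholesterol carrier, was at 985 to 1727 CPM in NSCLC and 5746 to 7990.1 CPM in Normal (-2.39 ± 0.26). Without any one Normal library 3 metalloprotease genes were higher, and 5, 4 and 4 lysosomal genes without Normal1, Normal2 and Normal3.

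Of 24 chemokines 11 fell and 3 rose (median -1.47). Cxcl15, lungkine, a neutrophil chemokine of mouse lung epithelium, was at 601, 590.1, 286 and 613 CPM in NSCLC and 6252, 7005 and 6759 CPM in Normal (log2 fold change -3.67 ± 0.30, adjusted p = 4.05e-05). Cxcl3, another neutrophil chemokine, went up, with 191, 159, 64.6 and 56.5 CPM in NSCLC and 4.20, 8.22 and 5.45 CPM in Normal (4.30 ± 0.55), as did Cx3cl1, the membrane-bound fractalkine (2.85 ± 0.18). Of 16 complement genes 9 fell and 1 rose, but 5 fell and 2 rose without Normal2. Cfi, the complement factor I protease made by liver, was the one that rose with all 7 libraries, at 13.4, 102, 19.4 and 64.7 CPM in NSCLC and 0 to 0.327 CPM in Normal.

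Interferon-stimulated genes mostly failed the test, with 1 of 36 higher and 3 lower. Their summed level was at 304, 258, 1737 and 706 CPM in NSCLC and 402, 1399.6 and 444 CPM in Normal, so 1 library stood high in each group, NSCLC3 and Normal2. Isg15, a ubiquitin-like protein, was at 2.74, 1.31, 178 and 56.9 CPM in NSCLC and 4.44, 27.9 and 5.59 CPM in Normal (adjusted p = 0.261). Ifit1, a sensor of viral RNA, was at 0.900, 0.215, 43.6 and 7.93 CPM in NSCLC and 4.86, 86.6 and 6.74 CPM in Normal (adjusted p = 0.514). Without Normal2 the list had 2 genes higher and 0 lower, and without NSCLC3 7 lower. Isg20, an exonuclease, was the gene that rose with all libraries, at 22.2 to 57.3 CPM in NSCLC and 9.84 to 10.9 CPM in Normal. Of 8 MHC class II genes 4 fell, H2-DMb1 of peptide loading by 2.77 (SE 0.50), while the invariant chain Cd74 was at 28.1 to 75.4 CPM in NSCLC and 65.2 to 96.1 CPM in Normal and was not called. Samhd1, which degrades nucleotides and restricts viruses, was at 37.7 to 100.03 CPM in NSCLC and 181 to 311 CPM in Normal (-2.05 ± 0.34).

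Markers of fibroblasts, macrophages and endothelium were mostly lower in NSCLC, and those of other cell types were mixed. Of 12 fibroblast markers other than collagens 11 fell and 0 rose, with a median of -9.23 on the log2 scale, or -6.35 with the 4 genes at 0 in NSCLC set to their bound. Dcn, decorin, was at 0 to 0.0579 CPM in NSCLC and 9.67, 18.5 and 10.4 CPM in Normal, Pdgfrb, of pericytes and fibroblasts, at 0.0209 to 0.0414 CPM in NSCLC and 6.91, 19.2 and 6.24 CPM in Normal, and Tbx4, of lung mesenchyme, at 0.00671 to 0.0248 CPM in NSCLC and 5.84, 30.0 and 6.19 CPM in Normal. These defining markers were thus at or near 0 in all tumour libraries and highest in Normal2. The summed list was at 59.8, 315, 448 and 142 CPM in NSCLC and 419, 635 and 248 CPM in Normal, but Fn1, which epithelium also makes, alone had 57.5, 313, 447 and 141 CPM in NSCLC and was not called. After thinning 7 fibroblast markers were called lower.

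Of 16 macrophage markers 12 fell and 2 rose. The summed list was at 159, 101, 76.3 and 78.5 CPM in NSCLC and 56.2, 376 and 128 CPM in Normal, with overlapping ranges. Marco, a scavenger receptor of alveolar macrophages, was at 0 CPM in 3 NSCLC libraries and 0.293 CPM in NSCLC4, and at 3.74, 154 and 22.8 CPM in Normal. Mpeg1, perforin-2 of phagocytes, was at 0.175 to 0.857 CPM in NSCLC and 5.33, 36.6 and 15.1 CPM in Normal. The 2 that rose were Cd68, at 6.88 to 27.5 CPM in NSCLC and 2.38 to 9.49 CPM in Normal, and Mrc1, at 11.9 to 18.5 CPM in NSCLC and 2.01 to 9.05 CPM in Normal, and without Normal3 neither was called. Cd68 also lost its call without NSCLC2, NSCLC3 or Normal1. Of 8 endothelial markers 5 fell, or 2 after thinning and 3 without NSCLC3, with Eng, endoglin, at 0.0402 to 0.118 CPM in NSCLC and 2.22 to 5.41 CPM in Normal. Of 9 basal epithelial markers 4 fell, Krt5 among them, at 0.00803 to 0.0496 CPM in NSCLC and 48.0, 4.22 and 4.07 CPM in Normal, so Normal1 stood out for it. Of 7 neuroendocrine markers 4 rose, Insm1 among them with 0.683, 4.73, 2.07 and 12.6 CPM in NSCLC and 0 to 0.0439 CPM in Normal. Of 10 smooth muscle and pericyte markers 4 fell and 1 rose, or 1 and 0 without Normal2, and of 4 mesothelial markers 1 fell, or 3 without Normal2. The sums of both lists overlapped, at 10.4 to 84.1 CPM in NSCLC and 10.2 to 16.4 CPM in Normal for smooth muscle and at 129 to 1777 CPM in NSCLC and 221 to 656 CPM in Normal for mesothelium. Of 3 B cell markers 2 fell, or 1 without Normal2 or Normal3, and of 2 T and NK cell markers 1 rose, or 0 without Normal1 or Normal3, with sums of 1.05 to 2.69 CPM in NSCLC and 0.467 to 0.747 CPM in Normal. Of 6 neutrophil and mast cell markers 2 moved in each direction, and neither of 2 erythroid markers was called. The part of these cells in the falls of Serping1, Ccl2, Sparcl1, Grem1 and the WNT antagonists was not tested.

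NSCLC libraries varied more among themselves than Normal libraries. Over 5804 genes expressed in both groups, the median SD of log2 CPM was 0.239 in NSCLC (n = 4) and 0.126 in Normal (n = 3), and the SD was above 1 for 161 genes (2.77%) in NSCLC and 27 genes (0.465%) in Normal. Among those 161 genes, NSCLC1 was the library farthest from the rest for 93 and NSCLC3 for 48. The 8 genes with the widest range over the NSCLC libraries were Apoa1, Angptl4, Alb, Cdh16, Pigr, Ndnf, Ager and Apob, spanning 4.87 to 7.40 on the log2 scale. Cdh16, a cadherin of kidney and thyroid epithelium, was at 9.01 CPM in NSCLC1 and 229 to 387 CPM in the other 3, with 8.36 to 11.5 CPM in Normal. Angptl4, an inhibitor of lipoprotein lipase, was at 19.99, 162, 586 and 1578 CPM in NSCLC and 2.03 to 2.77 CPM in Normal. Pigr, the carrier of IgA across epithelium, showed another order, with 419, 79.98, 12.9 and 11.4 CPM in NSCLC and 4.17 to 14.5 CPM in Normal, and the groups overlapped.

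A pair of these genes had levels in some tumour libraries closer to Normal than in others. Ager, an alveolar type 1 cell receptor, was at 7.99, 6.93, 239 and 85.1 CPM in NSCLC and 4292, 3301 and 4556 CPM in Normal. Ndnf, a secreted neurotrophic factor, was at 30.6, 278, 1029.8 and 642 CPM in NSCLC and 1469, 1014 and 1309.9 CPM in Normal, where NSCLC3 reached the range of Normal and the gene was not called (adjusted p = 0.216). Ager, Cldn18 and Ndnf were all higher in NSCLC3 and NSCLC4 than in NSCLC1 and NSCLC2. For contrast, Cdkn2a ranged over 556 to 717 CPM across the same 4 libraries.

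**Figure D5:**
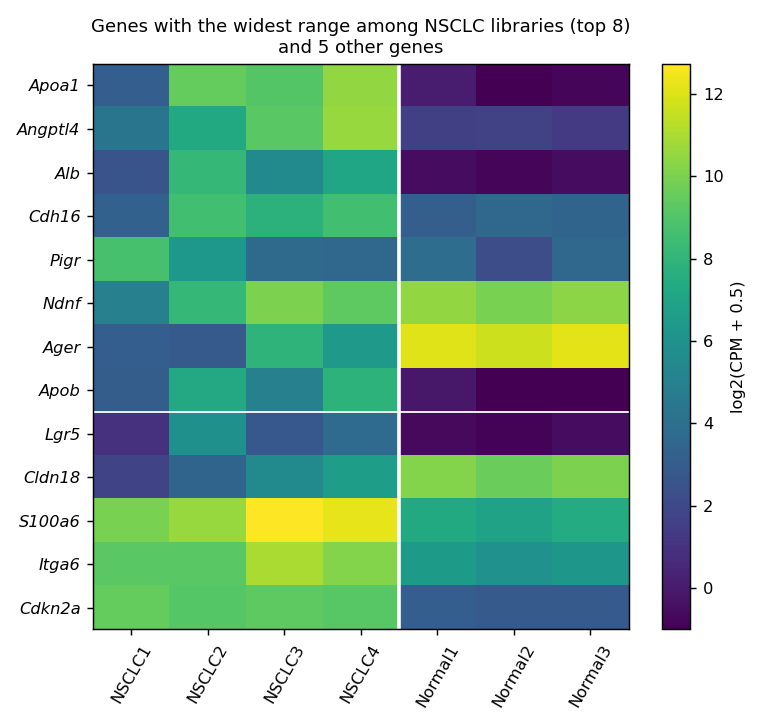
Heat map of log2(CPM + 0.5) in the 4 NSCLC and 3 Normal libraries, for the 8 genes with the widest range among NSCLC libraries (above the white line) and 5 other genes named in the text. NSCLC1 is the lowest NSCLC library for Apoa1, Angptl4, Alb, Cdh16, Ndnf and Apob and the highest for Pigr, while Cdkn2a is nearly even across the 4.

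Calls were spread over all chromosomes, with some unevenness. Chromosome 15 had the largest share of its protein-coding genes higher, 253 of 592 or 42.7% (median log2 fold change 0.43), and chromosome X the smallest, 141 of 490 or 28.8% (median 0.01), next to chromosome 6 with 206 of 703 or 29.3% (median 0.04). Relative to the other chromosomes, the median level of single NSCLC libraries was shifted by between -0.28 for chromosome 14 and 0.24 for chromosome 15, both in NSCLC1. Xist, the RNA that silences one X chromosome in female cells, was at 0.0562, 0.174, 0.0910 and 0.174 CPM in NSCLC and 708, 605 and 633 CPM in Normal (log2 fold change -12.31 ± 0.41, adjusted p = 2.32e-06). Of 4 Y-linked genes listed, Ddx3y, Kdm5d and Uty did not pass the filter on low counts. Eif2s3y was at 0.00803, 1.09, 0.0993 and 0.118 CPM in NSCLC and at 0 in all Normal libraries, and was not called (adjusted p = 0.119). With Xist included, the 5 sex-linked genes listed summed to 0.0723 to 2.28 CPM in NSCLC and 605 to 708 CPM in Normal. The sex of the animals is not given in the labels used here, and sex and tumour state cannot be told apart for this gene.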

How the data were processed

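Per the labels, stranded messenger RNA libraries were sequenced as paired reads of 150 bases on an Illumina instrument. The authors deposited whole-number read counts per gene, not normalized. The submitters' processing notes name STAR 2.6.0a, DESeq2 1.26.0 and mm10. For the read counter, the annotation and reads aligned to several places, the treatment was not given in the sources used here. Another 7 per-sample columns of scaled values in the same table were not used.

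Rows were named and typed by GENCODE M21 of the same build, which held 51719 of 51912 identifiers. Rows of low count were dropped by the filterByExpr function (edgeR 4.0.16 in R 4.3.3 with limma 3.58.1), libraries were scaled by TMM, and NSCLC was tested against Normal over all 19932 remaining rows with edgeR's quasi-likelihood test and Benjamini-Hochberg adjustment (threshold 0.05). SE is the log2 fold change over the square root of F. CPM is the count over the TMM-scaled library size, and folds by group means are ratios of mean CPM. On simulated counts for these 19932 genes the test recovered 13.4% of 2-fold, 82.1% of 4-fold and 93.9% of 8-fold changes. The simulation gave every gene the same set variation between libraries, not one estimated from these libraries. These shares therefore do not measure what the comparison of the real libraries could detect. Processed pseudogene rows were matched to protein-coding transcripts with BLAST+ blastn 2.17.0 (at least 80% of their length, e-value up to 1e-20), which gave 3498 of 4444 rows a parent. A gene with 0 counts in a group was set against 3 counts in the group's shallowest library, a bound for counting error only.

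The 81 gene lists and the genes named were chosen with earlier results of these data known. Named genes are the 12 largest changes in each direction at a mean log2 CPM of at least 5, up to 4 called members of each list with the highest CPM, a fixed set of 70 genes, the 8 genes with the widest range over NSCLC libraries, and the 5 processed pseudogene rows with the most CPM in NSCLC. Only part of them is described, and some items are not reported here. Genes named outside this rule, namely Epcam, Nkx2-1, Rpl23a, Gm10132, Gm10335 and Fn1, were chosen after their values were seen.

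Alternatives were RLE and upper quartile scaling, DESeq2 1.42.0, other filters, thinning to equal depth, protein-coding rows only, a replicate block and leaving out each library. Adding pseudogene rows to parents was chosen after seeing the data. Whether the libraries of a group derive from different animals or cultures is not in the labels, and the p-values therefore cover only variation among these libraries, which may be technical. Within a group, no pair of libraries differed by as little as counting noise.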

Additional observations from a re-analysis of the deposited data

Results flagged for a closer look

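Among 138 genes of the text, 12 had an NSCLC library that stood apart from the other 3 by Dixon's gap test. Chance alone flags about 1 of 20 groups, but that rate does not apply as such to these genes. They include the 8 genes named for the widest range over the same libraries, Cdh16 among them. NSCLC3 stood apart for 5 of them. It was low for Cad at 73.2 CPM, with 137 to 147 CPM in the others, for Kif23 at 79.2 CPM (others 116 to 123.2), for Fgf1 at 11.5 CPM (others 17.8 to 19.105) and for Cxcl15 at 286 CPM (others 590.1 to 613). It was high for Nnat at 6.09 CPM (others 3.16 to 3.5). NSCLC1 was low for Cdh16 at 9.01 CPM (others 229 to 387) and Itga2 at 222 CPM (others 515 to 604), and high for Rpl23a at 59.4 CPM (others 46.0 to 48.0). NSCLC2 was high for Tgfa at 156 CPM (others 102 to 107) and at 0 CPM for Serping1, where the others held only 0.0482 to 0.0496 CPM. NSCLC4 was low for Ptch1 at 34.1 CPM (others 42.8 to 43.8), and it alone held Marco, at 0.293 CPM with 0 in the others.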

How the results depend on the processing

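Counts of genes higher and lower in NSCLC, 5672 and 4983, stayed within 1.5 times of these under every alternative run, with 5753 and 5801 by DESeq2 and ranges of 4490 to 5339 and 4092 to 5144 when 1 library was left out. Processed pseudogene rows called higher, 88 as reported, numbered 36 under a stricter filter, 38 after thinning, 45 with a replicate block, 51 to 80 with 1 library left out, 17 with all or the largest pseudogene rows added to parents and 1 among protein-coding rows only. Those called lower, 1126 as reported, numbered 1045 to 1103 with 1 library left out, 48 with rows added to parents and 6 among protein-coding rows only. The last 2 settings remove such rows by construction. The replicate block gave 4728 higher and 4211 lower genes. It turned the Isg15 log2 fold change, not called with or without it, to -0.44, and lost the calls of Rplp0, Sfrp1 and Cdh16. Libraries of the same number did not deviate together (r of -0.0077, 0.0208 and -0.0212). With so few libraries this cannot exclude that the numbers pair them. Direction turned for Rpl23a (-1.47 with all rows and -0.93 with the largest row added), for Oaz1 (-0.17 and -0.18, adjusted p = 0.425 and 0.418) and for the Ifit1 log2 fold change, never called, which ran from -3.45 without NSCLC3 to 1.15 without Normal2. The Pigr log2 fold change passed the threshold without NSCLC3 (4.04) or NSCLC4 (4.01, adjusted p = 0.0294 each) and, with all libraries, by DESeq2 (3.63) and with no filter on low counts (3.73). RLE scaling changed no call of the 138 genes followed and upper quartile scaling only that of Cd68. The causes were not tested. Thinning, the stricter filter and low counts in the shallower Normal libraries limit the HOX, fibroblast, endothelial and other lists of low genes.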
